A study of Homo sapiens with 10 samples.

Results

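The genes described here are 42 genes of the lysosome and of autophagy, together with the transcription factors of the TFE family that control many of them. They were listed by name, from their known functions but with earlier results of these data known. They were matched by gene symbol to an expression table of each of 2 human leukaemia cell lines, Kasumi-1 and NB4. Of the 42 genes, 22 carried a value in Kasumi-1, among 10802 symbols matched there, and all 42 carried a value in NB4, among 21961 symbols. After treatment with the compound JOA, TFE3 messenger RNA was higher in every treated library than in every control library of both lines, by 1.67 times in Kasumi-1 and 1.57 times in NB4. The autophagy gene WIPI1 showed the same order in both lines, although its protein-coding transcripts overlapped between the groups in NB4. SQSTM1 and the lysosomal peptidase TPP1 were set apart from their controls in Kasumi-1 but overlapped with them in NB4, and ATG7 and CTSS were set apart in NB4 but overlapped in Kasumi-1. All JOA libraries lay above all controls in 16.0% of all Kasumi-1 features and 32.5% of all NB4 features. Without pairing of replicates or shared variance, none of these genes passed adjustment for multiple testing in either line. In the fit of all libraries none of their differences between the lines passed it.

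Lysosomes are acidic compartments that break down proteins, lipids, sugars and worn organelles, and autophagy is the process that wraps cell contents in a double membrane and delivers them there. TFE3, TFEB and MITF are related transcription factors that bind E-box sequences containing the letters CACGTG, often within the longer CLEAR element, in the promoters of many lysosomal and autophagy genes. When the kinase complex mTORC1 is active on the lysosome surface it phosphorylates these factors and holds them in the cytoplasm, and the proteins FLCN, FNIP1, FNIP2 and RRAGD act in that control, so that much of the factors' regulation is not visible in their own messenger RNA.

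Kasumi-1 is an acute myeloid leukaemia line that carries the RUNX1-RUNX1T1 fusion, and NB4 is an acute promyelocytic leukaemia line that carries the PML-RARA fusion. Kasumi-1 had 3 control libraries and 3 libraries from cells given JOA, and NB4 had 2 of each, with JOA at 1 µM and an incubation of 48 h in both arms. What the control cells received is not described further in the labels, and for the treated NB4 libraries the source name gives I13, whereas title and agent both give JOA. Each line is a single line grown in culture, and no label says whether replicates came from separate cultures, so the p-values speak of the spread between these libraries alone, which may be technical.

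The promoters of several of these genes are shown because they carry the letters that TFE3, TFEB and MITF are known to bind. RefSeq windows of 250 bases before and 50 bases after the start on GRCh38.p14 were found for 33 of the 42 genes, in 44 windows, and the letters CACGTG, which read the same on both strands, lay in the windows of 8 of those genes (24.2%), namely ATP6V0D1, CTSA, CTSD, FNIP1, GAA, LAMP1, MCOLN1 and NEU1. By window the share was 18.2% of 44, and it was 7.26% of all 35116 windows in the RefSeq table. The same letters with GT before and AC after them, a longer palindrome, lay in 0.353% of all windows and in those of GAA and MCOLN1 among these genes. The related letters CATGTG, searched on both strands, lay in 13.6% of the 44 windows, near the 11.1% of all windows. The genes were BECN1, CTSA, FNIP2, GPNMB, TPP1 and WIPI2. A match of letters is a description and not a shown binding site. The sequences below run 5′ to 3′ on the strand of the gene, and capitals mark CACGTG.
MCOLN1, plus strand, chr19:7522524-7522623: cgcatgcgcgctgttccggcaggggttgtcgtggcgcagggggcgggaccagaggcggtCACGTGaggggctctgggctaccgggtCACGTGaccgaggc
GAA, plus strand, chr17:80101481-80101580: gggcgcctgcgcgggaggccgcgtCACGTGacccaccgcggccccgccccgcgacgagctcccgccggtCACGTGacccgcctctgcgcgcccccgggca
LAMP1, plus strand, chr13:113297039-113297138: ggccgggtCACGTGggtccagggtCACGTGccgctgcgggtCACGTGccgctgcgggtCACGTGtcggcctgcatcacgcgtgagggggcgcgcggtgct
CTSD, minus strand, chr11:1763957-1763986: gccggccgcgccCACGTGaccggtccgggt
CTSA, plus strand, chr20:45891298-45891327: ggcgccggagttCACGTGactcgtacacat
ATP6V0D1, minus strand, chr16:67481199-67481228: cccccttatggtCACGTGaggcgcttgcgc
NEU1, minus strand, chr6:31862930-31862959: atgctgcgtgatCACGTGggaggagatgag
TFE3, minus strand, chrX:49043487-49043586: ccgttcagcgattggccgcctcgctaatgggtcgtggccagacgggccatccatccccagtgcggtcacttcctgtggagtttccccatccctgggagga
WIPI1, minus strand, chr17:68457514-68457613: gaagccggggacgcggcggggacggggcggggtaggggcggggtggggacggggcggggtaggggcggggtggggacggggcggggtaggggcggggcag
The LAMP1 window held 6 copies of CACGTG in all, of which 4 lie close together in the stretch shown. TFE3, WIPI1 and SQSTM1 had no CACGTG in their windows.

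The Kasumi-1 values are FPKM (fragment counts scaled by transcript length and library size), the NB4 values are TPM (transcript abundances scaled to a common total), and levels are not compared between the lines. Relative depth of the Kasumi-1 libraries was 91.4 to 100% of that of control 1, the depth of NB4 is unknown, and libraries of 1 group correlated at 0.978 to 0.986 across features. MPO, a myeloid granule enzyme, stood at 4679 or above in every library, and RUNX1T1, part of the Kasumi-1 fusion, lay between 17.1 and 20.2 FPKM in Kasumi-1 and at no more than 0.0159 TPM in NB4. The mitochondrial share of TPM was 14.6 and 16.4% in the NB4 controls and 11.2 and 13.1% in the NB4 JOA libraries.

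In Kasumi-1, 21 of the 42 genes were tested and 8 of them were higher after JOA at an unadjusted p under 0.05 in limma, namely TFE3, SQSTM1, WIPI1, WIPI2, CTSB, PSAP, TPP1 and FLCN. None was lower. Among all 12130 features tested, 11.7% were higher and 4.67% were lower by the same rule. With Benjamini-Hochberg adjustment over all features, this unpaired fit called 0 features (0.00%), and TFE3, SQSTM1 and TPP1 stood at an adjusted p of 0.115. Control and JOA libraries with the same replicate number deviated together from their group means, and in the fit with the replicate number as a block 7 of the 21 genes rose at an adjusted p under 0.05, against 6.11% of all features. These were TFE3, SQSTM1, WIPI1, ULK1, CTSB, PSAP and TPP1, and none fell, against 2.05% of all features. When any 1 of the 3 replicate numbers was left out, the blocked fit called 0 features.

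Across the 21 tested genes in Kasumi-1 the median log2 change was 0.13, against 0.05 over all features, and 18 of 21 (85.7%) had a change above 0, against 61.9% of all features. In 9 genes, the 8 named and GAA, every JOA library lay above every control library, an order found in 16.0% of all features, and in 0 genes did every JOA library lie below, against 7.10%. FLCN passed the filter on low values only through its JOA libraries and so could be counted only if it was higher there. Scaling the libraries by median ratios moved the split of features at an unadjusted p under 0.05 from 1420 higher and 566 lower to 1022 higher (8.43%) and 936 lower (7.72%), and 7 of the 21 genes were then higher and 0 lower, PSAP being the one that left, at a p of 0.0519. After this scaling 16 of 21 (76.2%) had a change above 0, against 52.1% of all features. With the block and this scaling together 5 of the 21 genes rose at an adjusted p under 0.05, against 4.07% of features, ULK1 and PSAP being the ones that left.

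For 20 of the 42 genes no Kasumi-1 row was matched to the symbol, and they were not analysed here in that line. They are TFEB, GABARAPL1, GABARAPL2, MAP1LC3B, ATG9A, ATG16L1, BECN1, LAMP1, MCOLN1, NPC1, GPNMB, CTSL, HEXA, GLA, NEU1, NPC2, ATP6V0D1, ATP6V1H, ATP6AP1 and FNIP2. MITF had a value but lay under the filter. In NB4 the 1 gene under the filter was GPNMB, a lysosomal membrane glycoprotein, at 0.641 and 0.741 TPM in the controls and 0.778 and 0.589 TPM after JOA.

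**Figure D1:**
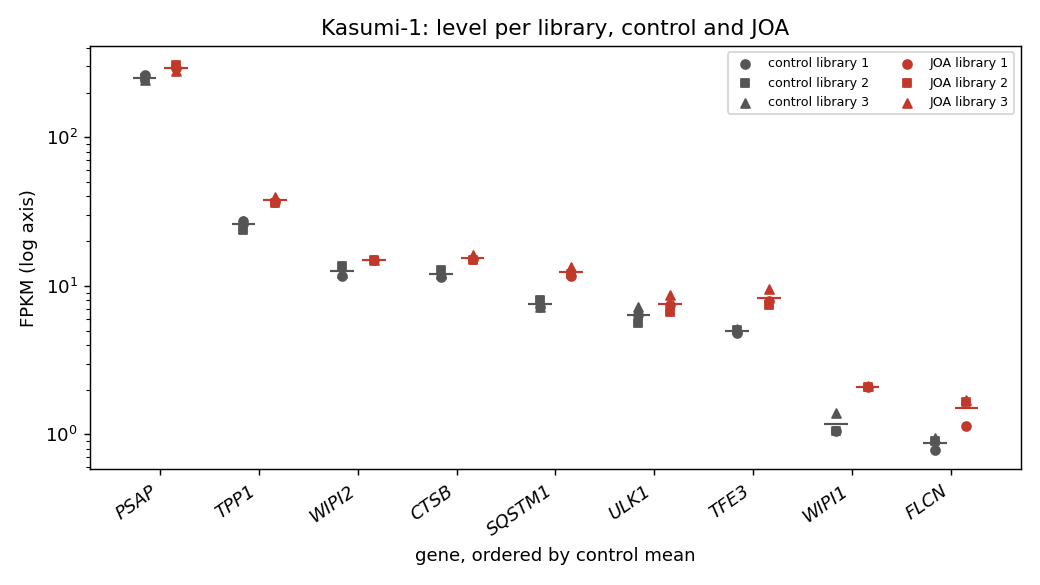
Level of 9 genes in each Kasumi-1 library, in FPKM on a log axis, with control libraries in grey, JOA libraries in red, the replicate number as the marker shape and the group mean as a line. In 8 genes all 3 JOA libraries sit above all 3 control libraries, and in ULK1 the groups overlap while each JOA library lies above the control library of its own number.

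In NB4, 41 of the 42 genes were tested and 6 were higher after JOA at an unadjusted p under 0.05 in limma, namely TFE3, WIPI1, ATG7, ATG9A, BECN1 and CTSS, against 8.20% of all 12941 features. CTSD was lower, against 2.42% of all features. With adjustment over all features 0 of the 41 genes were called, against 0.00773% of features, which is the single gene CXCL10, named after its value was seen. A fit of both lines together, in which the variance is shared over all 10 libraries and only symbols in both tables enter, called 4 of 22 genes as risen at an adjusted p under 0.05, against 1.68% of 7260 features, namely TFE3, WIPI1, ATG7 and CTSS. None of the 22 fell in that fit, against 0.468% of features.

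The median log2 change of the 41 genes in NB4 was 0.12, against 0.08 over all features, and 32 of 41 (78.0%) were above 0, against 66.2% of features. In 20 genes both JOA libraries lay above both controls and in 4 genes (CTSD, GLA, FLCN and RRAGD) both lay below, orders found in 32.5% and 11.0% of all features. Median-ratio scaling moved the split of features at an unadjusted p under 0.05 from 1061 higher and 313 lower to 617 higher (4.77%) and 591 lower (4.57%). The median of the 41 genes was then 0.03, and 5 genes were higher and 3 lower, as ATG9A left the higher group at a p of 0.173, and GLA at 0.0385 and FLCN at 0.0194 joined the lower one. Fewer genes were higher at an unadjusted p under 0.05 in limma without JOA library 2, which leaves a single library in that group. The share of all features in that fit is not given.

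**Figure D2:**
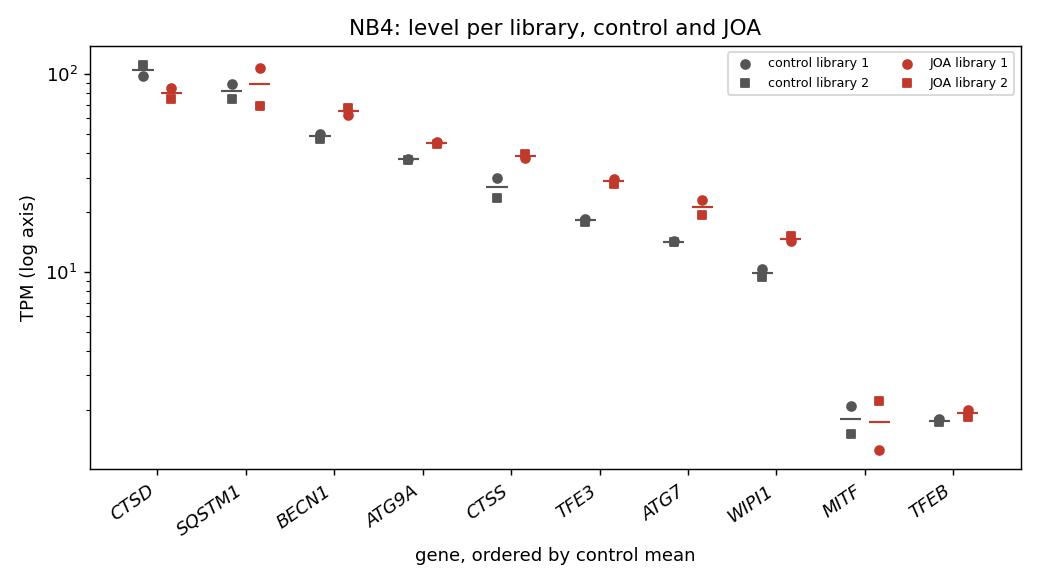
Level of 10 genes in each NB4 library, in TPM on a log axis, with control libraries in grey, JOA libraries in red, the replicate number as the marker shape and the group mean as a line. TFE3, WIPI1, ATG7, ATG9A, BECN1 and CTSS have both JOA libraries above both controls, CTSD has both below, and SQSTM1 and MITF overlap.

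TFE3 (chrX:49028726-49043486 on GRCh38, GENCODE, minus strand) had the highest level of the 3 TFE factors in NB4, the line in which all 3 were measured. In Kasumi-1 it stood at 4.79, 5.02 and 5.15 FPKM in the controls and 7.95, 7.48 and 9.50 FPKM after JOA. All 3 JOA libraries were above all 3 controls, and the controls lay close together. The log2 change was 0.63 ± 0.09 (SE, n = 3 per group), with a limma adjusted p of 0.115 unpaired and 0.0295 with the replicate block. In NB4 TFE3 stood at 18.6 and 18 TPM in the controls and 29.6 and 27.9 TPM after JOA. The gap between the groups was many times the spread within them. The log2 change was 0.62 ± 0.13 (SE, n = 2 per group), with a limma adjusted p of 0.200 in NB4 alone and 0.0236 with the variance shared over both lines. Leaving out single libraries kept the change between 0.54 and 0.70 in Kasumi-1 and between 0.58 and 0.66 in NB4.

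The NB4 table lists transcripts, so the TFE3 change can be followed within the gene. The protein-coding transcript TFE3-201 held 67.1% of the TFE3 TPM and went from 12 and 13.1 TPM to 20.3 and 17.8 TPM. TFE3-204, annotated for nonsense-mediated decay, went from 4.6 and 3.74 TPM to 6.27 and 5.88 TPM. Both were higher in both JOA libraries, and with protein-coding transcripts alone the gene's log2 change was 0.57 with an unadjusted limma p of 0.00275.

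TFEB, the closest relative of TFE3 in lysosomal control, was measured in NB4 only, at 1.80 and 1.74 TPM in the controls and 2.01 and 1.86 TPM after JOA. The levels were an order of magnitude under those of TFE3, and the log2 change of 0.08 ± 0.23 (SE) had an unadjusted p of 0.727. MITF, known as the master regulator of pigment cells, lay between 0.082 and 0.222 FPKM in the 6 Kasumi-1 libraries. In NB4 it stood at 2.11 and 1.52 TPM in the controls and 1.26 and 2.24 TPM after JOA, and the groups overlapped. Most of that, 83.3%, belonged to MITF-213, a transcript annotated as processed and not coding, and protein-coding MITF transcripts summed to at most 0.364 TPM. At these levels no change of TFEB or MITF was detectable.

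Of the autophagy genes, SQSTM1 was measured in both lines. Its protein, p62, is a receptor that links ubiquitinated cargo to the growing autophagosome. SQSTM1 (chr5:179806398-179838078, plus strand) ranked 2nd by p among all Kasumi-1 features in the unpaired fit. It stood at 7.22, 8.08 and 7.21 FPKM in the controls and 11.7, 12.1 and 13.3 FPKM after JOA. Every JOA library was above every control, with a log2 change of 0.65 ± 0.07 (SE, n = 3 per group) and a limma adjusted p of 0.115 unpaired and 0.0278 with the block. In NB4 SQSTM1 stood at 89.0 and 74.6 TPM in the controls and 108 and 69.3 TPM after JOA. Both controls lay between the JOA libraries, and the log2 change of 0.09 ± 0.20 (SE) had an unadjusted p of 0.682. Its NB4 transcripts varied between libraries of 1 group: SQSTM1-213 was at 12.4 and 11.6 TPM in control 1 and JOA 1 and at 0 in control 2 and JOA 2.

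WIPI1 (chr17:68420948-68457513, minus strand) encodes a protein that binds phosphatidylinositol 3-phosphate at the forming autophagosome. In Kasumi-1 it stood at 1.06, 1.06 and 1.40 FPKM in the controls and 2.09, 2.08 and 2.11 FPKM after JOA. The JOA libraries were nearly equal and all above the controls, with a log2 change of 0.51 ± 0.11 (SE) and a limma adjusted p of 0.145 unpaired and 0.0431 with the block. In NB4 it stood at 10.4 and 9.45 TPM in the controls and 14.3 and 15.2 TPM after JOA. The groups did not overlap, and the log2 change was 0.53 ± 0.15 (SE), with a limma adjusted p of 0.316 in NB4 alone and 0.0474 with shared variance. Only 18.5% of WIPI1 TPM in NB4 belonged to protein-coding transcripts, at 1.33 and 2.44 TPM in the controls and 1.81 and 3.54 TPM after JOA. Those overlapped (log2 change 0.34, with an unadjusted limma p of 0.252), while the retained-intron transcript WIPI1-205 went from 4.21 and 2.28 to 5.0 and 4.67 TPM and WIPI1-208, also with a retained intron, from 2.79 and 1.25 to 4.57 and 3.99 TPM.

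WIPI2, a relative of WIPI1 that recruits the lipidation machinery, stood in Kasumi-1 at 11.7, 13.6 and 12.3 FPKM in the controls and 15.0, 14.9 and 15.0 FPKM after JOA. The groups did not overlap, but the log2 change of 0.24 ± 0.06 (SE) missed the threshold with the block at an adjusted p of 0.0533. In NB4 its change was 0.09 ± 0.10. ULK1, the kinase that starts autophagy, stood at 6.33, 5.62 and 7.19 FPKM in the Kasumi-1 controls and 7.43, 6.69 and 8.68 FPKM after JOA. The groups overlapped, yet the JOA library was higher than its control in each of the 3 replicate numbers. The log2 change of 0.22 had an adjusted p of 0.385 unpaired and of 0.0497 with the block, just under the threshold.

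ATG7 (chr3:11272309-11557665, plus strand), the E1-like enzyme of both conjugation systems of autophagy, stood in NB4 at 14.3 and 14.2 TPM in the controls and 23.0 and 19.5 TPM after JOA. Both JOA libraries were above the near-equal controls, with a log2 change of 0.54 ± 0.15 (SE) and a limma adjusted p of 0.304 in NB4 alone and 0.0391 with shared variance. In Kasumi-1 it stood at 2.07, 2.04 and 2.14 FPKM in the controls and 2.18, 2.30 and 2.07 FPKM after JOA, which overlapped. Of its NB4 transcripts, the coding ATG7-215 went from 4.77 and 5.92 to 11.8 and 6.19 TPM, so the size of the change differed between the JOA libraries.

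BECN1, a subunit of the lipid kinase complex of autophagosome formation, stood in NB4 at 50.1 and 47.0 TPM in the controls and 62.4 and 67.6 TPM after JOA. The groups did not overlap, and the log2 change was 0.41 ± 0.11 (SE), with an unadjusted limma p of 0.00664 and an adjusted p of 0.297. ATG9A, a lipid scramblase on vesicles that seed autophagosomes, stood at 37.1 and 37.0 TPM and then 45.2 and 44.2 TPM. These were again apart, but the unadjusted p of 0.0477 for a log2 change of 0.26 was lost in each fit that left out 1 library (0.0933 to 0.140).

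The other autophagy genes missed an unadjusted p of 0.05 in NB4 in the fit of that line and in the one with shared variance. With no filter on low values GABARAPL2 reached an unadjusted p of 0.0379 there. GABARAPL1, GABARAPL2 and MAP1LC3B, whose proteins are joined to lipid on the autophagosome membrane, had NB4 log2 changes of 0.09, 0.19 and 0.19. ATG16L1, which directs that joining, had 0.16, and UVRAG, a partner of BECN1, had 0.04 in NB4 and 0.02 in Kasumi-1. All 12 autophagy genes tested in NB4 had a change above 0 on the deposited scale, but 7 of 12 did after median-ratio scaling, when SQSTM1, WIPI2, UVRAG, ULK1 and GABARAPL1 came to between -0.05 and 0.00. In Kasumi-1 all 6 tested were above 0, against 61.9% of features. After scaling 5 of 6 were, against 52.1%, UVRAG being at -0.02.

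**Figure D3:**
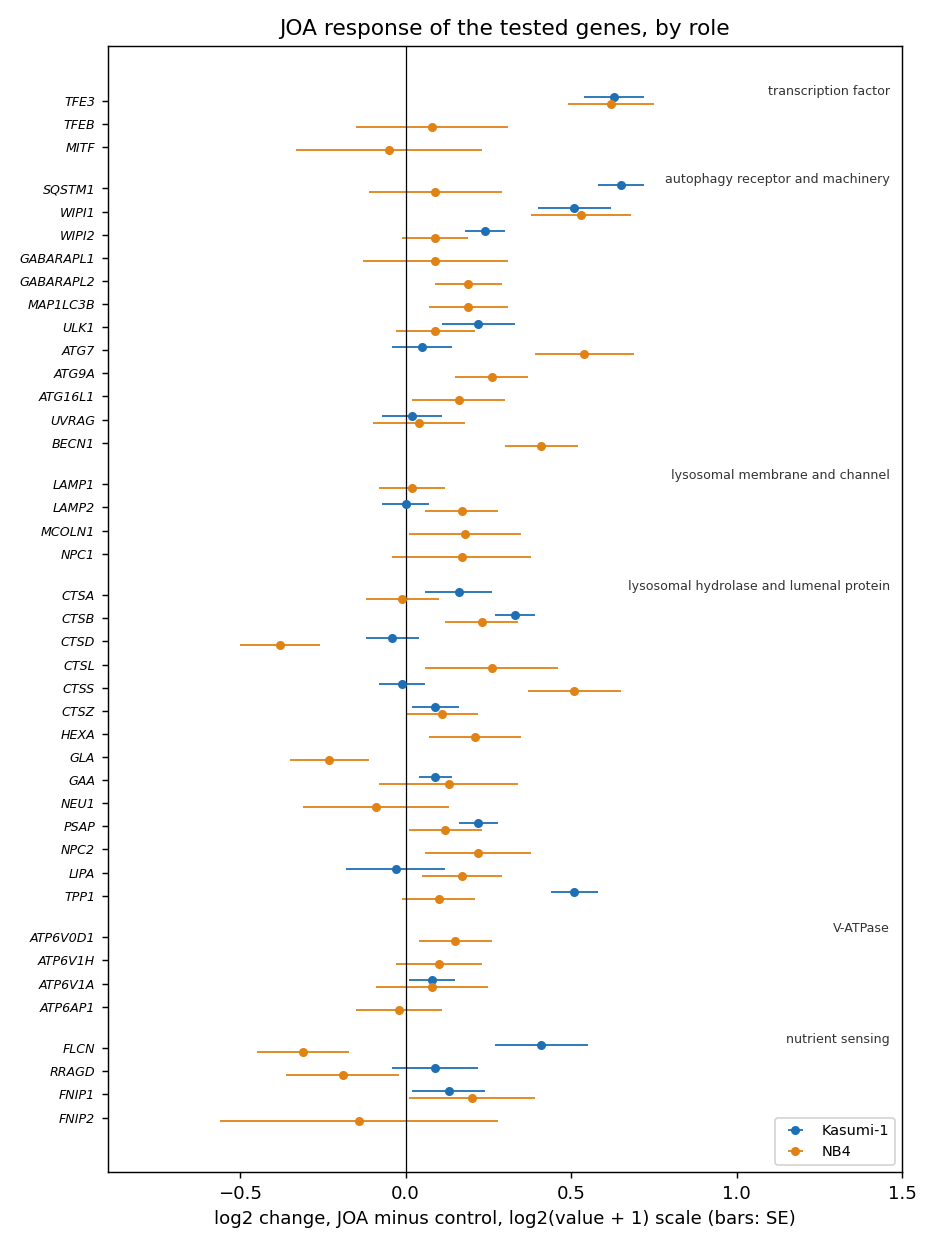
Log2 change after JOA with its standard error for every tested gene, grouped by role, in Kasumi-1 (blue, 21 genes, 3 libraries per group) and NB4 (orange, 41 genes, 2 libraries per group). TFE3 and WIPI1 lie above 0.5 in both lines, the V-ATPase and membrane genes lie within 0.2 of 0, and CTSD in NB4 is the lowest at -0.38.

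Among the enzymes and other proteins of the lysosome lumen, 3 of the 9 tested in Kasumi-1 rose in the blocked fit, where 6.11% of all features rose, and 2 of the 9 rose in the block with median-ratio scaling, where 4.07% of features did. TPP1 (chr11:6612763-6619485, minus strand), a tripeptidyl peptidase, stood at 27.5, 23.6 and 27.3 FPKM in the controls and 36.7, 36.4 and 39.8 FPKM after JOA. The lowest JOA library was well above the highest control, with a log2 change of 0.51 ± 0.07 (SE) and a limma adjusted p of 0.0273 with the block. In NB4 TPP1 stood at 186 and 166 TPM and then 202 and 176 TPM, which overlapped (log2 change 0.10 ± 0.11). CTSB, a cysteine cathepsin, stood in Kasumi-1 at 11.4, 12.8 and 12 FPKM in the controls and 15.2, 14.9 and 16.1 FPKM after JOA. The groups did not overlap, with a log2 change of 0.33 ± 0.06 (SE, blocked adjusted p = 0.0372 in limma). Its NB4 change was 0.23 ± 0.11 with an unadjusted p of 0.0756.

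PSAP, the precursor of the saposins that present lipids to hydrolases, had the highest level of these genes in Kasumi-1. It stood at 261, 250 and 244 FPKM in the controls and 293, 306 and 278 FPKM after JOA. The groups were apart by a small margin, with a log2 change of 0.22 ± 0.06 (SE, blocked adjusted p = 0.0453 in limma). GAA, the acid glucosidase that breaks down glycogen and whose promoter is shown above, had non-overlapping groups in Kasumi-1, from 53.9 ± 1.95 to 57.4 ± 1.04 FPKM (SD, n = 3), but a log2 change of 0.09 with a blocked adjusted p of 0.166.

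CTSS (chr1:150730196-150765957, minus strand), a cathepsin of antigen-presenting and other myeloid cells, stood in NB4 at 29.8 and 23.8 TPM in the controls and 37.5 and 39.5 TPM after JOA. The groups did not overlap, with a log2 change of 0.51 ± 0.14 (SE) and a limma adjusted p of 0.305 in NB4 alone and 0.0420 with shared variance. In Kasumi-1 it stood at 8.94, 8.23 and 9.01 FPKM and then 8.15, 8.83 and 8.96 FPKM, which overlapped throughout. The NB4 transcript CTSS-204, annotated as processed and not coding, went from 12 and 8.36 to 17.3 and 15.7 TPM, and the coding transcripts went from 17.1 and 14.9 to 19.7 and 22.4 TPM in sum.

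Markers of monocytes and macrophages were measured in the same libraries. Of 8 such markers 5 were tested in NB4. ITGAM and ITGAX were higher at an unadjusted p under 0.05, while CD68, LYZ and CSF1R had log2 changes of -0.10, -0.02 and 0.17 that did not pass. The summed level of the list was 66.7 to 70.4 TPM in the controls and 78.3 to 80.3 TPM after JOA. CD14 and CD163 stayed under 1 TPM in all NB4 libraries. In Kasumi-1 the sum was 7.44 to 16.5 FPKM in the controls and 8.73 to 18.9 FPKM after JOA, which overlap, with CSF1R the 1 marker higher of 2 tested. Of 4 myeloid markers in NB4, MPO and AZU1 were lower at an unadjusted p under 0.05 (log2 changes of -0.58 and -0.57), and CD33 and PTPRC were higher (0.45 and 0.73). CD3D had a log2 change of 0.52, while CD3E, the other T cell marker listed, was at no more than 0.0959 TPM in any NB4 library. A list of epithelial and fibroblast markers summed to 38.2 to 39.2 TPM in the controls and 53.1 to 54.8 TPM after JOA. Their part in the changes of CTSS and the other genes was not tested, and in such bulk libraries fewer cells of a type and less RNA per cell cannot be told apart.

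CTSD (chr11:1752752-1764573, minus strand), the main aspartic protease of the lysosome, went the other way. In NB4 it stood at 98.2 and 111 TPM in the controls and 85.1 and 74.7 TPM after JOA. Both JOA libraries were below both controls, with a log2 change of -0.38 ± 0.12 (SE, unadjusted p = 0.0127) and a limma adjusted p of 0.341 in NB4 alone and 0.0885 with shared variance. Nearly all of it, 95.5%, was the coding transcript CTSD-201. In Kasumi-1 it stood at 13.1, 12.8 and 14.5 FPKM and then 11.9, 14.2 and 13.2 FPKM, which overlapped.

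GLA, the alpha-galactosidase, was also below its controls in NB4, at 74.3 and 82.3 TPM and then 62.8 and 70.6 TPM, with a log2 change of -0.23 and an unadjusted p of 0.0860. The rest of the lumenal genes gave no call. In NB4 the log2 changes were 0.26 for CTSL and 0.11 for CTSZ, both cathepsins, -0.01 for CTSA, the protective protein of neuraminidase, and -0.09 for NEU1, the neuraminidase itself. HEXA, a hexosaminidase subunit, had 0.21, NPC2, a cholesterol carrier, 0.22, and LIPA, the acid lipase, 0.17. In Kasumi-1 the values were 0.16 for CTSA, 0.09 for CTSZ and -0.03 for LIPA.

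Of the listed genes of the lysosome membrane and the proton pump, 4 and 4 were tested in NB4 and 1 each, LAMP2 and ATP6V1A, in Kasumi-1. None of these tests reached an unadjusted p under 0.05 in limma in the fits of the single lines, with or without the block. LAMP1 and LAMP2, the main glycoproteins of the lysosome membrane, had NB4 log2 changes of 0.02 and 0.17. LAMP2 in Kasumi-1 had 38.0 ± 1.32 FPKM in the controls and 38.2 ± 3.48 FPKM after JOA (SD, n = 3). MCOLN1, the calcium channel whose promoter is shown above, stood in NB4 at 10.8 and 9.64 TPM and then 10.8 and 12.7 TPM, a log2 change of 0.18 ± 0.17. NPC1, which exports cholesterol, ranged from 21.2 to 32.6 TPM within the JOA group alone. The V-ATPase subunits ATP6V0D1, ATP6V1H and ATP6V1A and the accessory subunit ATP6AP1 had NB4 changes of 0.15, 0.10, 0.08 and -0.02, and ATP6V1A had 0.08 in Kasumi-1.

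Of the 3 nutrient-sensing genes tested in both lines, FLCN and RRAGD had fitted changes of opposite sign when all NB4 transcripts were summed. No difference between the lines passed adjustment. FLCN (chr17:17212212-17237188, minus strand), the folliculin that activates the RRAGC and RRAGD GTPases towards TFE factors, stood in Kasumi-1 at 0.785, 0.899 and 0.952 FPKM in the controls and 1.14, 1.65 and 1.71 FPKM after JOA. The groups did not overlap, but levels were near the filter, and the log2 change of 0.41 ± 0.14 (SE) had a blocked adjusted p of 0.0791 in limma and an unadjusted p of 0.0201 unpaired, which became 0.0776 without JOA 3. In NB4 FLCN stood at 17.4 and 16.2 TPM in the controls and 13.3 and 13.5 TPM after JOA. Both JOA libraries were lower, with a log2 change of -0.31 ± 0.14 (SE) and an unadjusted p of 0.0676. Within the gene, the retained-intron transcript FLCN-210 went from 5.37 and 5.36 to 2.38 and 2.34 TPM, whereas the coding transcript FLCN-201 stood at 6.58 and 6.04 and then 6.45 and 6.30 TPM. With coding transcripts alone the NB4 log2 change was -0.07 (unadjusted p = 0.681).

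RRAGD, a GTPase that presents TFE factors to mTORC1, had log2 changes of 0.09 in Kasumi-1 and -0.19 in NB4. FNIP1, a partner of FLCN, had 0.13 in Kasumi-1 and 0.20 in NB4. FNIP2, the other partner, stood in NB4 at 1.09 and 3.80 TPM in the controls and 1.26 and 2.65 TPM after JOA, so its libraries differed more within groups than between them.

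Where both lines could be compared, 15 of 21 genes (71.4%) had a change above 0 in both, against 45.5% of 5768 symbols tested in both. After median-ratio scaling the count was 9 of 21 (42.9%), against 28.8% of 5763 symbols. The difference between the lines (Kasumi-1 change minus NB4 change, in 1 limma fit over all 10 libraries) was 0.01 ± 0.14 for TFE3, at an unadjusted p of 0.948, and -0.02 ± 0.16 for WIPI1, at a p of 0.898. Errors of that width do not show that the changes are equal. With a pseudocount of 0.1 the differences were 0.07 and 0.22, and after rescaling both lines to 1000000 they were 0.10 and 0.20. The ratio of mean levels of WIPI1 was 1.78 in Kasumi-1 and 1.49 in NB4.

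Of 22 genes tested for the difference, 4 had a positive difference at an unadjusted p under 0.05, against 3.94% of 7260 features, and 2 had a negative difference, against 7.73%. After adjustment 0 of the 22 were called, against 0.193% of features. FLCN differed most, by 0.71 ± 0.17 (unadjusted p = 0.00170, adjusted p = 0.183), as it was higher in Kasumi-1 and lower in NB4. The measures are unlike, as the Kasumi-1 value is 1 sequence record and the NB4 value sums transcripts, 46.6% of it coding. With coding transcripts alone the NB4 change of FLCN was -0.07. SQSTM1 differed by 0.57 ± 0.22 (adjusted p = 0.349), TPP1 by 0.41 ± 0.13 (adjusted p = 0.270) and CTSD by 0.34 ± 0.14 (adjusted p = 0.376), its changes being -0.04 in Kasumi-1 and -0.38 in NB4. CTSS differed by -0.53 ± 0.14 (adjusted p = 0.216) and ATG7 by -0.50 ± 0.15 (adjusted p = 0.231). Without NB4 JOA 2 the 4 genes with a positive difference became 1. SQSTM1 reached an adjusted p of 0.0453 without NB4 JOA 1, and CTSS reached 0.0374 without NB4 control 1, where 1 arm of NB4 holds a single library that is assumed to vary like the other groups.

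**Figure D4:**
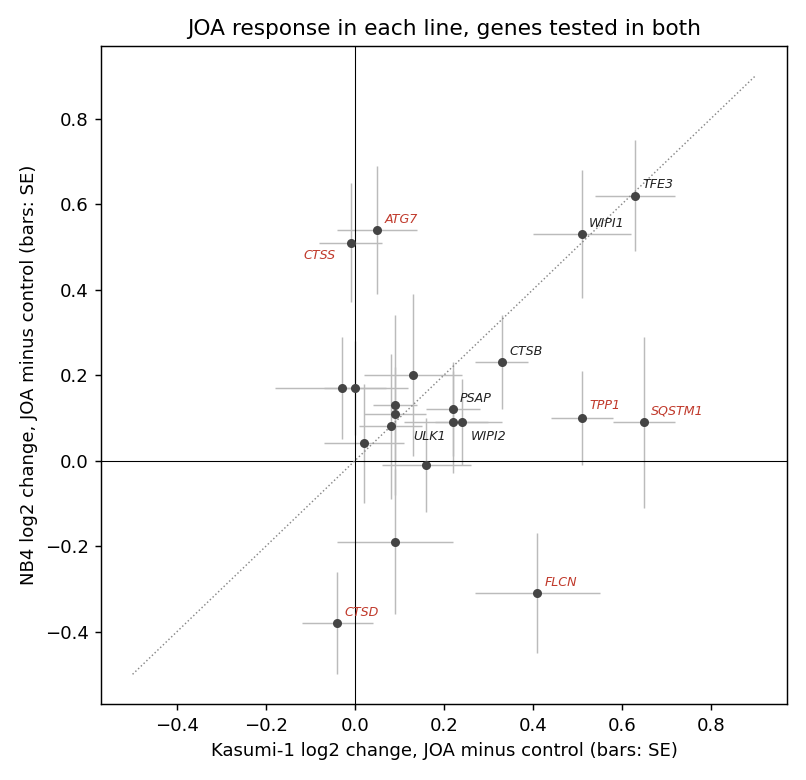
Log2 change after JOA in Kasumi-1 (x axis) and NB4 (y axis) for the 21 genes tested in both lines, with standard errors, and a dotted line where the changes are equal. TFE3 and WIPI1 lie near the line on this log2(value + 1) scale, and the 6 genes in red (SQSTM1, TPP1, FLCN, CTSD, ATG7 and CTSS) are those whose difference between the lines has an unadjusted p under 0.05. NB4 values sum all transcripts of a gene, and 18.5% of the WIPI1 value there is coding.

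Beyond the 42 genes, other genes of the same pathways were counted in 4 lists. In Kasumi-1, 10 of 22 tested hydrolases and lysosomal membrane proteins were higher at an unadjusted p under 0.05 and 0 were lower, read against the 11.7% and 4.67% of all features. After median-ratio scaling 6 were higher and 1 was lower, against 8.43% and 7.72%. The lowest p-values were those of NAGLU, an enzyme of heparan sulfate breakdown (5.21 ± 0.374 to 7.29 ± 0.481 FPKM, SD, n = 3), SLC36A1, an amino acid exporter, SMPD1, the acid sphingomyelinase, and CTNS, the cystine exporter. NAGLU, CTNS and ARSB, an arylsulfatase, rose in the blocked fit, with limma adjusted p of 0.0374, 0.0485 and 0.0497. They were 3 of the 22, and 6.11% of all features rose in that fit. With the block and median-ratio scaling together 1 of the 22 rose, against 4.07% of features. Of 6 other V-ATPase subunits 1 was higher, ATP6V0A2, against 11.7% of all features. ATP6V0A2 rose in the blocked fit (limma adjusted p = 0.0397), where 6.11% of features rose. With the block and median-ratio scaling together 0 of the 6 rose.

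Of 26 other autophagy genes in Kasumi-1, 4 were higher (15.4%) and 1 was lower (3.85%) at an unadjusted p under 0.05, against 11.7% and 4.67% of all features. After median-ratio scaling 2 were higher and 2 were lower, 7.69% each, against 8.43% and 7.72%. ZFYVE1, a marker of the membrane site where autophagosomes form, went from 5.90 ± 0.282 to 7.38 ± 0.434 FPKM (SD, n = 3; blocked adjusted p = 0.0370 in limma). NBR1, a cargo receptor that works with SQSTM1, went from 7.0 ± 0.852 to 8.70 ± 0.657 FPKM (blocked adjusted p = 0.0390). In the blocked fit these 2 of the 26 rose, against 6.11% of all features. With the block and median-ratio scaling together 2 of the 26 rose, against 4.07%. ATG14 and ATG2A were the other genes that were higher, and SNAP29, a fusion protein, was lower, with a log2 change of -0.18. Of 13 other mTORC1 and nutrient-sensing genes 2 were higher (15.4%), LAMTOR1 and TSC1, against 11.7% of all features. In the blocked fit 1 of the 13 rose (7.69%), against 6.11%. TFEC, the remaining TFE family member, was called in the blocked fit (adjusted p = 0.0442) with a log2 change of 0.41, and its levels were low in both libraries of replicate number 2 (2.72 FPKM after JOA there, against 9.45 FPKM in JOA 3). ARSB, SNAP29 and TFEC are named after their values were seen.

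In NB4 the shares of these lists lay nearer the 8.20% and 2.42% of all features. Of 37 hydrolases and membrane proteins 4 were higher and 0 lower, among them CLN3 (47.2 ± 6.13 to 64.1 ± 0.787 TPM, SD, n = 2), FUCA1 and ARSB. Of 14 V-ATPase subunits 0 were higher and ATP6V0E2 was lower, from 25.3 ± 5.44 to 16.4 ± 1.84 TPM (SD, n = 2). Of 40 autophagy genes 5 were higher, among them ULK2, ATG16L2 and NBR1, and BNIP3, a receptor for mitochondria that hypoxia induces, was lower, from 177 ± 17.9 to 139 ± 1.09 TPM (SD, n = 2). Of 20 mTORC1 and nutrient-sensing genes 0 were higher and 0 lower at an unadjusted p under 0.05 in limma. None of the 73 genes of these lists that entered the fit with shared variance was called there at an adjusted p under 0.05, while 13 were higher and 1 lower at an unadjusted p under 0.05, against 16.0% and 3.94% of 7260 features in that fit. NBR1 and ARSB were among the genes of these lists higher at an unadjusted p under 0.05 in both lines.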

How the data were processed

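Messenger RNA was measured by sequencing in 10 libraries of 2 cell lines. Trizol was used for total RNA and a stranded TruSeq mRNA kit for the libraries, per the labels' protocols. Tools named without version or role, per the submitters' processing notes, are HTSeq, Cufflinks, HISAT2 and Trimmomatic, with the build hg38.

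The authors deposited FPKM values for Kasumi-1, in 29053 rows, each with a sequence record as its label. A symbol was found for 10906 rows (37.5%), holding 45.8% of the FPKM, and the row with the highest mean was used where a symbol had several. The authors deposited NB4 values for 121005 transcripts, and as each column sums to just under 1000000 they were taken as TPM, although the deposited table is named for FPKM. Transcripts were matched to GENCODE (93.9%, with 3.04% of TPM unmatched) and summed to genes.

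The lines were fitted separately in limma 3.58.1 (R 4.3.3, Python 3.11.15) on log2(value + 1) with a variance trend. A feature was kept if it reached 1 in a number of libraries no smaller than the smaller group. Changes on this scale are understated at low levels. The script was tested on simulated data. Deviations from the group mean were correlated between Kasumi-1 control and JOA libraries: r was 0.329, 0.499 and 0.423 where the replicate number was shared and -0.062 or less elsewhere. The numbers were therefore treated as pairs, and blocked values stand beside unpaired ones. The pairing comes from these values, not from a label. As deviations within a group cancel out, the negative r values are not separate evidence for it. Alternatives were the block, median-ratio scaling, a pseudocount of 0.1, no filter, summed rows, coding transcripts only, shared variance and leaving out libraries.

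The 42 genes and the other lists were chosen with earlier results of these data known. TFE3, TFEB, MITF and SQSTM1 are named whatever their result, as are genes at an unadjusted p under 0.05, at a blocked adjusted p under 0.05, or at an unadjusted p under 0.05 for the difference between the lines, and up to 4 genes per other list with the lowest p. Some genes of the other lists are not reported here.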

Additional observations from a re-analysis of the deposited data

How the results depend on the processing

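In Kasumi-1 the unpaired fit called 0 features and 0 of these genes, the replicate block 990 and 7, and the block with median-ratio scaling, an alternative chosen after seeing the data, 945 and 5. Leaving out libraries gave 0 to 1 features. In NB4, 1 feature was called, against 0 with median-ratio scaling, no filter or a pseudocount of 0.1, 13 with protein-coding transcripts only, 146 with the replicate block, 156 with shared variance, and 0 to 0 without single libraries. With shared variance 4 of these genes were called. The NB4 numbers were not taken as pairs (correlation 0.065, a single independent value with 2 libraries per group), and the block called 0 of these genes there. In NB4, 1 gene was lower at an unadjusted p under 0.05, against 3 with median-ratio scaling, 2 with no filter and 2 with shared variance. Of all features 2.42% were lower by that rule, against 4.57% with median-ratio scaling, 2.26% with no filter and 3.94% with shared variance. The 6 higher genes became fewer in some fits without single libraries, fewest without JOA 2. No share of all features is given for those fits. The median of 0.12 became 0.03 with median-ratio scaling and 0.07 to 0.18 without single libraries.

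The difference between the lines had 14 features, against 2 after rescaling both lines to 1000000, 38 with no filter, 2 with a pseudocount of 0.1, 36 with the replicate block and 2 to 111 without single libraries. Of these genes 0 to 1 were called without single libraries, and the 4 with a positive difference became 1 to 4.

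Directions turned in NB4 for genes that no test called. SQSTM1 came to -0.01 with median-ratio scaling, -0.23 without JOA 1 and -0.04 without control 2, in a range of -0.23 to 0.40 without single libraries. TFEB came to -0.02 with coding transcripts only, and MITF to 0.21 without JOA 1 and 0.10 without control 1, in a range of -0.31 to 0.21. The cause of these shifts was not tested. With 2 or 3 libraries per group, small changes are not detectable, and 20 of the 42 genes were not analysed here in Kasumi-1.
Over all alternatives, the genes picked by the naming rule, which are not all genes described, kept their direction and their side of the adjusted threshold in 123 of 135 values in Kasumi-1, 86 of 96 in NB4 and 88 of 90 for the difference between the lines. Of the rest, 12, 4 and 2 moved past the threshold in the same direction, and 0, 6 and 0 changed direction. No gene in the tally was called in the unpaired Kasumi-1 fit, in NB4 alone or for the difference between the lines. A kept side therefore means a gene that stayed uncalled, and the tally does not measure how firm the changes are. Outside that tally, median-ratio scaling turned UVRAG to -0.02 and LAMP2 to -0.04 in Kasumi-1. In NB4 it turned WIPI2 to -0.01, UVRAG to -0.05, LAMP1 to -0.07 and ATP6V1A to -0.01, among others. The WIPI1 difference turned from -0.02 to 0.22 with a pseudocount of 0.1.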
